A study of Arabidopsis thaliana with 12 samples.

Results

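Alternative 5′ splice sites are pairs of positions at which the same exon can end, so that the intron begins either at the upstream site, which gives the shorter exon, or at the downstream site, which gives the longer one. The events described here are those of this kind that the authors' deposited tables list for chilled smeb and for chilled Col-0 seedlings of Arabidopsis thaliana, with 1 entry kept for each gene and position. They number 349 in 324 genes, which is 18.5% of the 1891 events of all kinds in either table. They were chosen by measured values, since the tables list events that passed the authors' FDR limit of 0.05, and which table holds an event is therefore a description and not a finding.

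The study sequenced RNA from 12 libraries of whole seedlings, 2 in each of 6 groups: smeb-1 at 4 °C, smeb-2 at 4 °C, Col-0 at 4 °C, smeb-1 at 22 °C, smeb-2 at 22 °C and Col-0 at 22 °C, each for 24 h and at an age of 12 days. Both smeb lines carry mutant alleles of SmEb, a gene for an Sm core protein, in plants that are otherwise described by the same growth conditions as wild-type Col-0. The labels give the unchilled plants both as 22 °C for 24 h and as 0 h at 4 °C, and they do not say whether the replicates were grown separately. There is 1 chilling table for smeb, and the sources used here do not say how the 2 alleles and the replicates were combined in it. Nor do they say which groups were compared in each of the tables.

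The 5′ splice site is first recognised by the U1 small nuclear ribonucleoprotein, whose RNA pairs with the last exon bases and the first intron bases, and is later handed to U6. Nearly all plant introns begin with GT, and a small minority with GC. Sm core proteins form the ring around the U1, U2, U4 and U5 RNAs. A shift of the site by a multiple of 3 bases keeps the reading frame unless the extra bases hold a stop codon, whereas other shifts change it, and transcripts with a stop codon well before the last exon junction are often degraded by nonsense-mediated decay.

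The sites that lay closest together are shown first, because their bases overlap. In 23 events the sites were 5 nt apart, the shortest and the commonest spacing in the tables. The 9 of these that lie in coding sequence and in a gene with a symbol are printed 5′ to 3′ on the strand of the gene from the TAIR10.1 reference assembly, from 3 exon bases before the upstream site to 6 intron bases after the downstream one, with the first 2 intron bases of either site in capitals.
FZL (chr1:764059-764072, plus strand): ctcGTgagGTttat
PHYLLO (chr1:25900371-25900384, plus strand): caaGTaagGTcgag
MAK10 (chr2:4345750-4345763, minus strand): tccGTaagGTctca
COAD (chr2:7941100-7941113, plus strand): gttGTcagGTtttc
CNX2 (chr2:13585338-13585351, minus strand): gtgGTaagGTagaa
CIPK8 (chr4:12618541-12618554, plus strand): ataGTaagGCatga
CARAB-AK-LYS (chr5:4538085-4538098, plus strand): tgaGTaagGTtcgt
emb1211 (chr5:7531549-7531562, plus strand): tttGTgcgGTagtt
PHOT2 (chr5:23529779-23529792, plus strand): gagGCatgGTagga

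A second set holds events of genes named for a low FDR or as members of a gene list, all in coding sequence, to show sites with the same and with different reading frames. The capitals mark the same bases.
SNRK2.2 (chr3:18742877-18742906, minus strand): aagGTactatttatttctctcaagGTttgt
GRP7 (chr2:9265710-9265742, minus strand): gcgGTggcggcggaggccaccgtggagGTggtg
SPA3 (chr3:5170166-5170192, minus strand): cagGCaattctaatttgaaatGTcggc
PRR9 (chr2:19233320-19233336, plus strand): taaGTacgatgGTgatc
DEG8 (chr5:15943409-15943428, plus strand): aagGTacttatcagGTctgc
NRAMP6 (chr1:5484063-5484078, minus strand): aagGCatgagGTtttt
GLT1 (chr5:21701873-21701903, plus strand): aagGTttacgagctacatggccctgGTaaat
U1-70K, upstream site (chr3:18828343-18828351, minus strand): cggGTaggt
U1-70K, downstream site (chr3:18827547-18827555, minus strand): aagGTtgcc

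By table, 83 events in 81 genes were listed in smeb alone, 145 in 136 genes in both tables, and 121 in 117 genes in Col-0 alone. The smeb table thus holds 228 alternative 5′ sites, 16.8% of its 1359 events, and the Col-0 table holds 266, 19.9% of its 1339 events. From the ratio of p-value and FDR, an estimated 13.2% of 10308 tested events were listed in smeb and 13.8% of 9710 in Col-0. These shares stand only as background because the same calls chose the events. The ratios gave whole ranks for 88.4% of the values in smeb and 85.3% in Col-0. The p-values are headed as adjusted, and the recovery assumes that the FDR was computed from them. On that estimate the smeb table leaves out 334 of the 1693 ranks up to its last listed event (19.7%). For Col-0 the number is 7 of 1346 (0.520%). An event listed in Col-0 alone can therefore have passed in smeb as well, and a listing in 1 table does not show a difference between the genotypes.

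The tables give no direction, effect size or count per sample, and they do not name the groups compared. Neither the depth behind a call nor which of the sites gained use, and against which group, is therefore known. In the authors' deposited tables the median FDR of the events was 0.00121 in smeb and 0.00160 in Col-0, with a value of 0 for 34 events in smeb and 39 in Col-0. Events listed in both tables had a median FDR of 0.00018 in smeb and 0.000216 in Col-0, again in the authors' deposited tables; the smeb value was the lower for 59 of them and the Col-0 value the lower for 59, and 27 were at 0 in both. Events of a single table had higher values in the authors' deposited tables, with a median FDR of 0.00682 for smeb alone and 0.00932 for Col-0 alone. The same FDR limit decides which table lists an event, so this contrast is partly built in. The members closest inside the limit in the authors' deposited tables were an event of AT5G65380 at an FDR of 0.0485 in smeb and one of AT5G16110 at 0.05 in Col-0, and values outside the limit were not analysed here.

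The alternative 5′ sites lay a median of 35 nt apart, with the middle of the distribution between 16 and 84 nt and the whole of it between 5 and 1292 nt. Alternative 3′ splice sites of the same tables, 485 events, lay a median of 21 nt apart, with quartiles of 9 and 48 nt and a range of 5 to 1542 nt. The median differed by 14 nt (two-sided permutation test over events with 100000 draws, p = 3e-05, adjusted p = 1.8e-04 over 6 tests). Spacings of up to 10 nt made up 56 of the 5′ events (16.0%) and 139 of the 3′ events (28.7%), and spacings above 100 nt made up 71 of the 5′ events (20.3%) and 48 of the 3′ events (9.90%). Neither kind held a spacing of 3 or 4 nt, and whether the event caller set a lower limit is not stated. The medians, and the shares of multiples of 3 given below, therefore describe spacings of 5 nt or more only. Events are the units of this and the following tests. They are not independent replicates, and the tests carry no information on variation among libraries.

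The spacing was not shown to differ between the tables. The median was 31 nt for events in smeb alone, 36 nt for those in both and 33 nt for those in Col-0 alone, and the difference of -2 nt between smeb alone and Col-0 alone had an adjusted p of 0.814 in the permutation test.

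**Figure D1:**
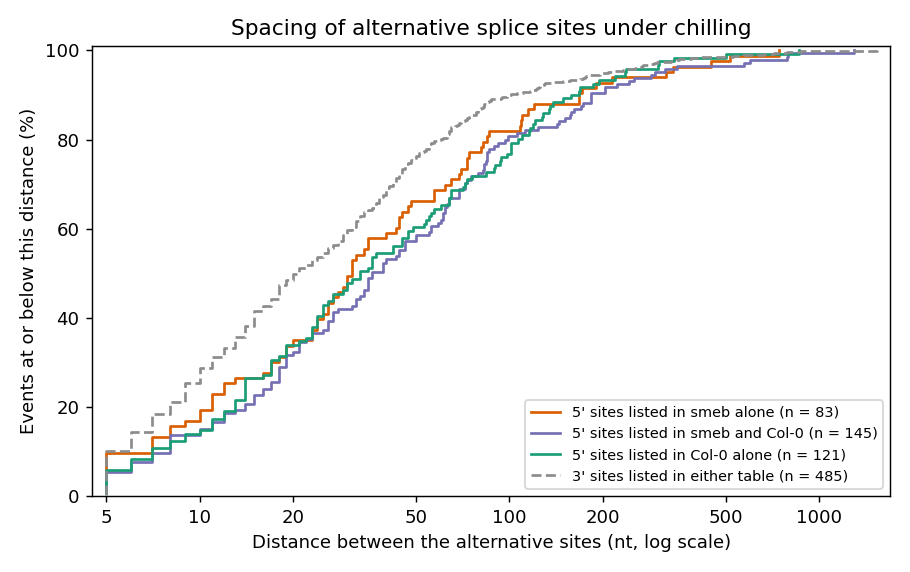
Cumulative share of events (per cent, vertical axis) against the distance between the alternative sites (nt, log scale) for 5′ sites listed in smeb alone, in both tables and in Col-0 alone, and for 3′ sites of either table. The 3 curves for 5′ sites run close together with medians of 31, 36 and 33 nt, and the dashed curve for 3′ sites lies to their left with a median of 21 nt.

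Of the 349 spacings, 103 (29.5%) were a multiple of 3, 104 (29.8%) were 1 nt and 142 (40.7%) were 2 nt above one. The 3′ sites had 164 multiples of 3 among 485 (33.8%), and the difference of -4.30 percentage points (95% interval -10.6 to 2.13) did not pass Fisher's exact test (adjusted p = 0.302). Multiples of 3 made up 20 of 83 events in smeb alone (24.1%), 42 of 145 in both (29.0%) and 41 of 121 in Col-0 alone (33.9%). The difference of -9.79 points between smeb alone and Col-0 alone (interval -21.6 to 3.08) did not pass either (Fisher's exact test, adjusted p = 0.302), and its interval leaves room for differences of either sign. It was -16.3 points among readable events inside the gene (adjusted p = 0.111, Fisher's exact test) and -25.2 points among events with both sites annotated (16.0% of 25 in smeb alone, against 41.2% of 51 in Col-0 alone; adjusted p = 0.0755, Fisher's exact test), a restriction chosen after seeing the data.

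**Figure D2:**
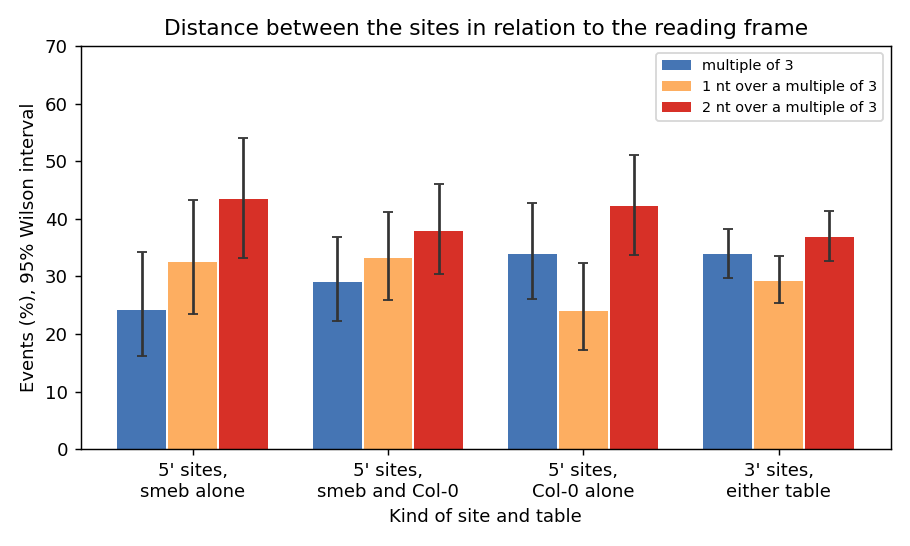
Share of events (per cent, with 95% Wilson intervals that cover counting error only) whose sites lie a multiple of 3 apart or 1 or 2 nt above one, for 5′ sites by table and for 3′ sites of either table. Multiples of 3 stand at 24.1% for smeb alone, 29.0% for both tables, 33.9% for Col-0 alone and 33.8% for 3′ sites, with overlapping intervals.

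In the reference annotation, both sites were known 5′ splice sites of the gene in 135 events (38.7%), 1 site in 194 and neither in 20. Where 1 site was annotated it was the upstream one in 97 events and the downstream one in 97. The share with both sites annotated was 180 of 485 for 3′ sites (37.1%), a difference of 1.57 points (interval -5.05 to 8.25, Fisher's exact test, adjusted p = 0.797). It was 25 of 83 in smeb alone (30.1%), against 51 of 121 in Col-0 alone (42.1%), a difference of -12.0 points (interval -24.6 to 1.49) that did not pass Fisher's exact test (adjusted p = 0.302).

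On the strand of the listed gene both sites began with GT or GC in 297 events. The upstream site read GT in 300 and GC in 12 of all 349, and the downstream site GT in 318 and GC in 8. The other reading that recurred was CT, which is AG seen from the opposite strand, at 35 upstream and 19 downstream sites. Of these 54 CT sites, in 33 genes, 40 (74.1%) coincided with an annotated 3′ splice site of a gene on the opposite strand. An opposite-strand gene overlapped 42 of the 52 events with an unreadable site (80.8%), against 4 of the 297 readable events (1.35%). The 52 events comprised 18 in smeb alone, 15 in both and 19 in Col-0 alone. Whether the reads were counted by strand is not stated, so the gene and the kind of these events are uncertain.

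Genes with 3 or more alternative 5′ sites all belonged to such overlaps. MAP65-8, a microtubule-associated protein, had 5 events and the antisense gene AT1G27921, which overlaps it, had 3. Every upstream site of these events read CT and was an annotated 3′ splice site of the other gene. AT5G53048, annotated as other RNA, had 3 events whose downstream sites read CT. SCAMP4, a secretory carrier membrane protein, had an event with CT at the upstream site, sites 7 nt apart, in smeb alone and another with CT at the downstream site, sites 23 nt apart, in Col-0 alone. In addition, 14 events lay outside the gene they are listed under, among them 3 on another chromosome, such as the event listed for PPOX, a protoporphyrinogen oxidase, at chr5:20329643-20329777.

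The 297 readable events were compared with the 9-base consensus of a 5′ splice site, that is A or C, A, G before the cut and G, T, A or G, A, G, T after it. The upstream sites matched 5.88 ± 1.07 of the 9 positions and the downstream sites 5.77 ± 1.07 (SD over sites, n = 297 each). Over the 131269 distinct 5′ splice sites of all annotated introns it was 6.36 ± 1.09. Unlike the sites of the events, this background was not limited to sites that read GT or GC. Sites without annotation matched 5.59 ± 1.10 positions (n = 169) and annotated sites of the same events 5.92 ± 1.04 (n = 425). A match at 7 or more positions was found for 20.7% of the sites without annotation, 29.9% of the annotated sites of the events and 47.4% of the distinct sites of all annotated introns. These values are a description of the sites and were not tested.

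The sites of an event were also set against each other. Where only the upstream site was annotated, 85 readable events, it matched more positions in 45, the downstream site in 19, and they tied in 21. Where only the downstream site was annotated, 70 readable events, it matched more in 35, the upstream site in 19, and they tied in 16. Where both were annotated, 51 events had the closer match upstream, 48 downstream and 36 tied.

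**Figure D3:**
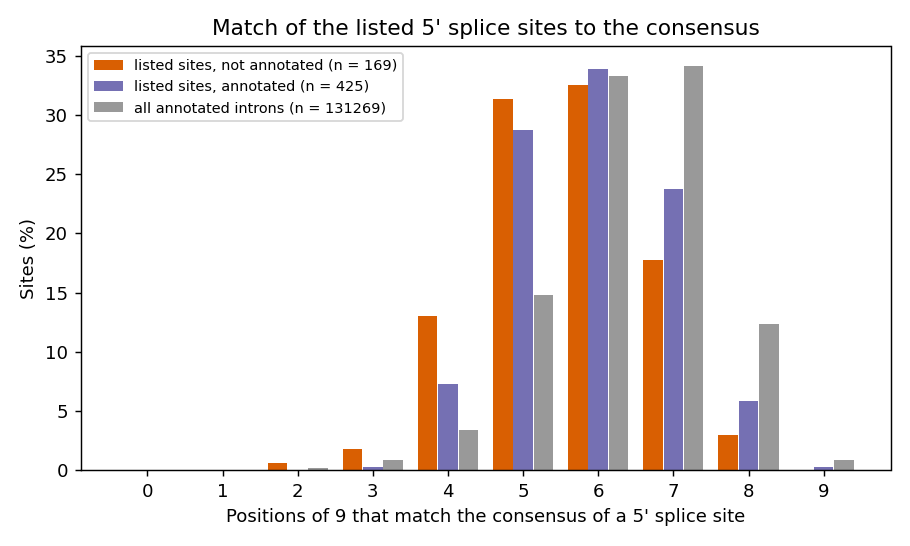
Share of sites (per cent) by the number of the 9 consensus positions that match, for listed sites without annotation, listed sites with annotation and all annotated introns. Sites without annotation reach 7 or more matches in 20.7% of cases, annotated listed sites in 29.9% and all annotated introns in 47.4%. Annotated introns are counted once for each distinct 5′ splice site and are not limited to GT or GC, as the listed sites are.

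The 5-nt spacing made up 6.59% of the 5′ events and 10.1% of the 3′ events (49 of 485), and 8 of the 23 were listed in smeb alone, 8 in both and 7 in Col-0 alone. All 23 read GT or GC at both sites. This spacing places the first base of the downstream intron at the sixth base of the upstream one, so a G at that position is fixed by the geometry. The upstream intron began with GTAAGG in 11 of them (47.8%), as printed above for PHYLLO, MAK10, CNX2, CIPK8 and CARAB-AK-LYS. Among the distinct 5′ splice sites of all annotated introns, 1328 of 131269 had this sequence (1.01%). This background was not limited to introns with a G at the sixth base, so part of the difference follows from the geometry. The downstream site was the only annotated one in 12 events, the upstream one in 6, and both were annotated in 5.

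A shift of 5 nt always changes the frame, and the modelled proteins of these genes differed accordingly. For CIPK8, a calcineurin B-like-interacting kinase, the upstream site left 221 residues and the downstream site 416. CNX2, an enzyme of molybdenum cofactor synthesis, had 390 residues with the upstream site and 284 with the downstream one. PHYLLO, an enzyme of phylloquinone synthesis, had 1371 with the upstream site and 136 with the downstream one. The blue-light receptor PHOT2, listed in smeb alone, had 898 residues with the upstream site and 915 with the downstream one, with no early stop in either form. Of the 18 events with 5 nt in the coding span, the early stop came with the upstream site in 8, with the downstream site in 7, with either in 1, and in 2 there was none. These counts depend in part on which site is annotated.

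Of the 335 events that lay inside the listed gene, 205 (61.2%) were in the coding span, 89 (26.6%) on the 5′ UTR side, 19 (5.67%) on the 3′ UTR side, 8 across an end of the coding span and 14 in genes without a coding transcript. Of 470 alternative 3′ splice sites inside their gene, 339 (72.1%) were in the coding span and 90 (19.1%) on the 5′ UTR side, and this difference was not tested. Of the 315 events in a coding transcript that uses one of the sites, 105 (33.3%) were in the first intron, where an even spread over the introns of each transcript would give 18.3%. On the 5′ UTR side it was 83 of 89.

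Among the events listed for both genotypes, 38 had an FDR of 0 in at least 1 of the authors' deposited tables, and among such ties the genes with the shorter spacing are the ones named. Several genes with a low FDR were of the 5′ UTR kind, in which the sites lie in the leader of the annotated transcript used here. No protein was modelled for these, and other transcripts of the gene were not checked for a different start. In smeb alone, the authors' deposited table gave an FDR of 0 for SCAB1, an actin-binding protein, with sites 34 nt apart. It gave 9.19e-06 for FTSZ2-1, a plastid division protein, with sites 338 nt apart, in the same authors' deposited table. SOS4, a pyridoxal kinase, had sites 33 nt apart and an FDR of 0 in both genotypes in the authors' deposited tables. RPN13, a ubiquitin receptor of the proteasome, had sites 35 nt apart with an FDR of 1.41e-08 in smeb and 0 in Col-0 in the authors' deposited tables.

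D6PK, a kinase that phosphorylates auxin transporters, had sites 15 nt apart in its leader, with an FDR of 0 in smeb and 0.000114 in Col-0 in the authors' deposited tables. CNGC1, a cyclic nucleotide-gated channel, had leader sites 5 nt apart, with 0.000322 in smeb and 0 in Col-0 in the authors' deposited tables. In Col-0 alone, ACHT4, a chloroplast thioredoxin, had an FDR of 0 and sites 25 nt apart in the authors' deposited table. The brassinosteroid transcription factor BES1 had 7.83e-08 and sites 94 nt apart, and the zinc finger factor IDD4 had 0.000235 and sites 186 nt apart, both in Col-0 alone in the authors' deposited table. Leader sites 320 nt apart in ABCI19, of the ABC transporter family, and 62 nt apart in OBE2, a PHD finger protein of meristems, were listed in smeb alone with an FDR of 5.59e-07 and 0.000276 in the authors' deposited table. Except for D6PK and CNGC1, which had 1 annotated site each, both leader sites of these genes were annotated.

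The reading frame could be modelled for 175 readable events in the coding span, with all other introns removed as annotated and an early stop defined as one more than 50 nt before the last exon junction. In 78 of them (44.6%, 95% interval 37.4 to 52.0) only the downstream site, with the longer exon, gave an early stop. In 40 (22.9%) only the upstream site did, in 15 (8.57%) either form had one, and in 12 (6.86%) the protein end changed without an early stop. The definition does not ask whether the stop is the annotated one. An annotated stop well before a later junction also meets it, so an early stop in either form need not mean a shortened protein. In 30 (17.1%, interval 12.3 to 23.4) the downstream site added residues in frame with no early stop in either form, between 2 and 65 with a median of 6. These are models of the annotated transcripts and no protein or decay was measured. Each model starts from an annotated transcript that uses 1 of the sites. Where only 1 site was annotated, that transcript holds the annotated reading frame, and the form with the other site is the altered one. The split between upstream and downstream sites therefore depends in part on which site is annotated.

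The models were also counted by table. An early stop with the downstream site alone was found for 19 of 42 events in smeb alone, 31 of 74 in both and 28 of 59 in Col-0 alone. Residues added in frame were found for 4, 13 and 13 of the same events. For 3′ splice sites, where the upstream site gives the longer exon, the early stop came with that site alone in 119 of 316 (37.7%) and with the shorter exon alone in 86 (27.2%). None of these shares was tested, and those for early stops depend in part on which site is annotated.

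A spacing that kept the frame did not always keep the protein. Of 55 modelled events with a multiple of 3, 30 added residues with no early stop, 21 (38.2%) brought an early stop with the downstream site, and 4 had one in either form. Among these 4, residues were added in frame in BBD1, a nuclease, and HAC12, a histone acetyltransferase. BBD1 had 301 residues with the upstream site and 325 with the downstream one, and HAC12 had 1641 and 1680. Of 120 with another spacing, 97 (80.8%) had an early stop with 1 of the sites alone, 57 of these with the downstream site and 40 with the upstream site, 11 had one with either, and 12 had none.

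**Figure D4:**
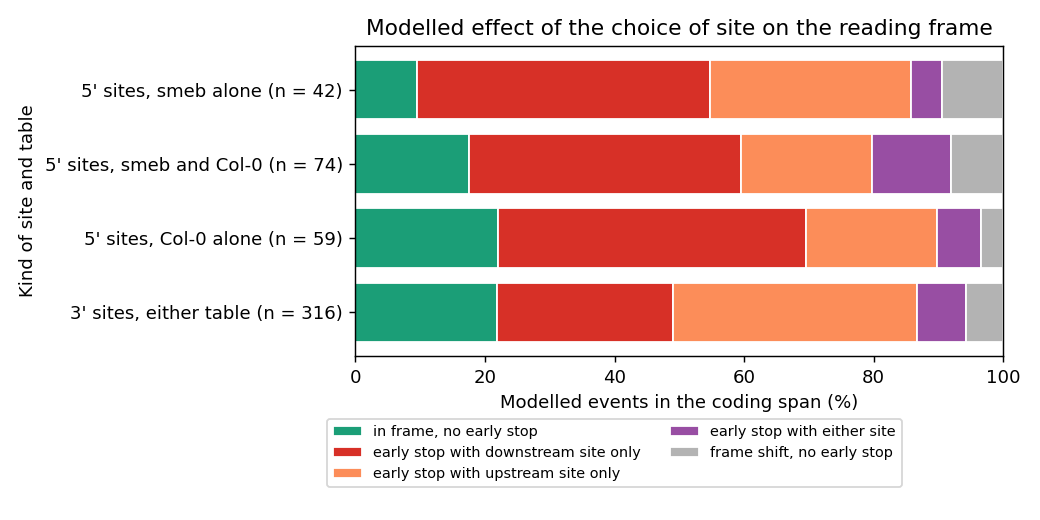
Share of modelled events in the coding span (per cent) by the effect of the choice of site, for 5′ sites in smeb alone, in both tables and in Col-0 alone and for 3′ sites of either table. An early stop with the downstream site alone takes up 19 of 42, 31 of 74 and 28 of 59 of the 5′ events and 86 of 316 of the 3′ events.

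Frame-preserving pairs included signalling and RNA-binding proteins. SNRK2.2, a kinase of abscisic acid signalling, had 2 annotated sites 21 nt apart at intron 5 of 8, and its protein had 362 residues with the upstream site and 369 with the downstream one. Its FDR was 0 in smeb and 0 in Col-0 in the authors' deposited tables. GRP7, a glycine-rich RNA-binding protein under control of the clock, had sites 24 nt apart, with modelled proteins of 151 and 159 residues, and an FDR of 0 in Col-0 alone in the authors' deposited table. As printed above, both GRP7 sites lie inside the glycine-rich repeat, and the upstream one is not annotated. The annotated intron is 51 nt long, and a listed retained intron covers or adjoins at least 1 of the sites. Both modelled proteins are made with these 51 nt spliced out. GBF3, a bZIP factor, had sites 69 nt apart and 359 residues with the upstream site, against 382 with the downstream one.

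SPA3, a repressor of light signalling that works with COP1, had sites 18 nt apart, yet the added bases hold a stop codon in frame. Its protein had 845 residues with the annotated GC site upstream and 662 with the GT site downstream. The FDR was 0 in smeb and 0 in Col-0 in the authors' deposited tables.

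Pairs that shifted the frame fell into both directions, in part according to which site is annotated. With the downstream site, MSL3, a mechanosensitive channel of plastids listed in smeb alone, had 79 residues, against 678 with the upstream site. TLP11, a tubby-like protein also in smeb alone, had 99 with the downstream site and 297 with the upstream one. PRR9, a clock component with both sites annotated and 8 nt apart, had 119 with the downstream site and 444 with the upstream one, and an FDR of 6.05e-05 in smeb and 0.00108 in Col-0 in the authors' deposited tables. NRAMP6, a metal transporter in Col-0 alone, had 159 with the downstream site and 527 with the annotated GC site upstream.

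In other genes the upstream site was the one that truncated the protein. GLT1, the NADH-dependent glutamate synthase, had 355 residues with the unannotated upstream site and 2208 with the downstream one, and an FDR of 0 in smeb and 0.0382 in Col-0 in the authors' deposited tables. DEG8, a protease of the thylakoid lumen in Col-0 alone, had 88 with the upstream site and 448 with the downstream one. D2HGDH, a mitochondrial dehydrogenase in Col-0 alone, had 282 with the upstream site and 559 with the downstream one. CIPK21, listed in both tables with sites 44 nt apart, had 185 with the upstream site and 405 with the downstream one.

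**Figure D5:**
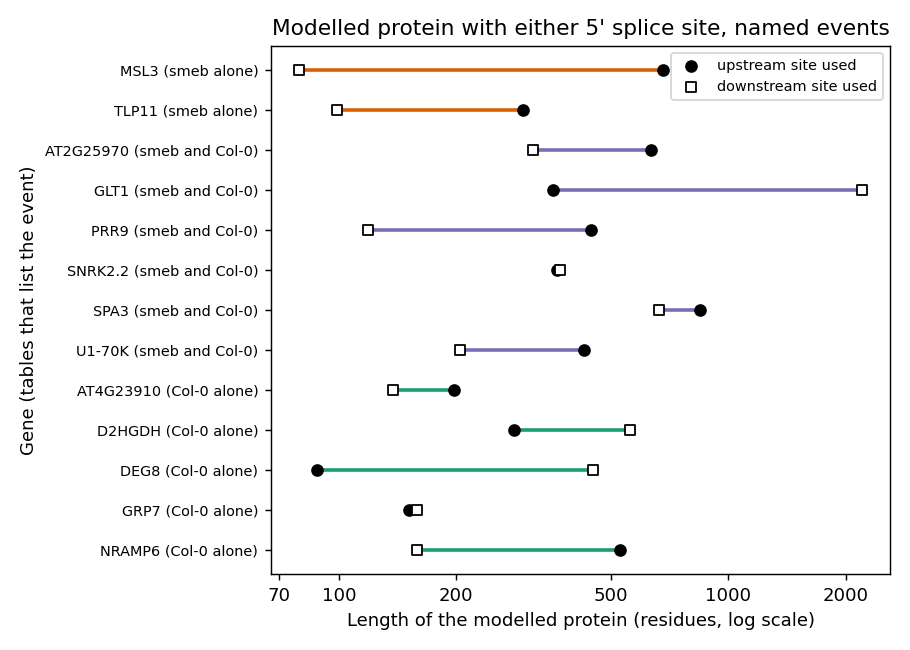
Length of the modelled protein (residues, log scale) for the named events in coding sequence with readable sites, with a filled circle for the upstream site, an open square for the downstream site and a line in the colour of the table. SNRK2.2 and GRP7 differ by few residues, whereas GLT1 runs between 355 residues with the upstream site and 2208 with the downstream site.

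The longest spacings were in introns where the downstream site lies far inside. In AT2G25970, a KH domain protein, the sites were 1292 nt apart at its last intron, with 632 residues for the upstream site and 315 for the downstream one, and an FDR of 0.000436 in smeb and 1.02e-06 in Col-0 in the authors' deposited tables. AT4G23910 followed with 860 nt in Col-0 alone, and U1-70K with 796 nt. U1-70K encodes a protein of the U1 particle that recognises 5′ splice sites. Its event lay at intron 6 of 8, with 427 residues for the annotated upstream site and 204 for the unannotated downstream one.

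The U1-70K event was the only one of the 349 that stood in both chilling tables and in the table of smeb at 22 °C. Its FDR in the authors' deposited tables was 0 in chilled smeb, 0 in chilled Col-0 and 9.93e-05 at 22 °C. The groups compared are not stated, so these values need not come from like comparisons. The table at 22 °C had 4 alternative 5′ events in 3 genes. Besides U1-70K these were a pair in AT5G53048 with CT at the downstream site, one of which is listed in chilled smeb alone and the other in chilled Col-0 alone, and 1 in AT5G53050, which neither chilling table lists.

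The events were also counted in gene lists that fit a cold experiment on a spliceosome mutant. Of 7 lists with 107 genes, 52 genes had a listed event of some kind, and 7 of these (13.5%) had an alternative 5′ site, 1 in each list. Over all genes, 1491 had a listed event of some kind, and 324 of these had an alternative 5′ site. The reference holds 27444 protein-coding genes, though not all of the 1491 are protein-coding. Alternative 5′ sites accounted for 8 of 82 events of the lists (9.76%), beside 18.5% over all events. The 7 genes were U1-70K among 8 genes of 5′ site recognition, GRP7 among 25 SR and hnRNP genes, UAP56b, a DEAD-box helicase, among 6 genes of branch and 3′ site recognition, PRR9 among 22 clock genes, ERD10 among 19 cold genes, SNRK2.2 among 14 abscisic acid genes and PIF3 among 13 light genes. No test was made, as the lists were drawn up with results of these data known.

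Of these, ERD10 and UAP56b were the least certain. The ERD10 event, a dehydrin that accumulates in the cold, had an FDR of 1.28e-06 in smeb alone in the authors' deposited table, but neither site is annotated and the downstream one reads AA. UAP56b has a near-identical neighbouring copy, and the first of its 2 events, 599 nt apart, lay outside the listed gene. PIF3, a phytochrome-interacting factor, had 2 annotated leader sites 60 nt apart and an FDR of 0.00705 in Col-0 alone in the authors' deposited table. SmEb and its paralog SmEa had no event of any kind in the 3 tables.

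By words in the gene description, 59 of the 324 genes were metabolic enzymes (18.2%), beside 16.8% of the genes with any listed event and 15.3% of protein-coding genes. Kinases and phosphatases were 33 (10.2%, beside 8.72% and 6.14%), with 7 of the 81 genes in smeb alone, 11 of the 136 in both and 15 of the 117 in Col-0 alone. Transporters were 18 (5.56%, beside 3.15% and 3.07%) and transcription factors 14 (4.32%, beside 4.56% and 4.96%). Splicing and RNA-binding genes were 9 (2.78%), beside 5.30% of the genes with any listed event and 2.70% of protein-coding genes. Ubiquitin and proteolysis genes were 11 (3.40%, beside 4.76% and 6.32%) and chaperones and stress proteins 8 (2.47%, beside 2.08% and 1.26%). Chloroplast and photosynthesis genes were 7 (2.16%, beside 1.34% and 0.791%), and so were ribosome and translation genes (2.16%, beside 2.55% and 2.57%). For a count like that of the protein-coding genes, the reference product names of the 315 protein-coding genes among the 324 were also searched. Metabolic enzymes were then 18.7%, kinases and phosphatases 10.5% and transporters 5.40%. Transcription factors were 4.44%, and splicing and RNA-binding genes 2.86%. The classes rest on words alone and no difference between these shares was tested.

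Most genes had a single event of this kind, 304 of 324, and 17 had 2. Another listed event was found in 116 of the genes (35.8%), a cassette exon in 42, a retained intron in 42, an alternative 3′ site in 41 and another alternative 5′ site in 20. For 23 of the 349 events (6.59%), a retained intron listed for the gene covered or adjoined at least 1 of the sites. The same held for 20 of the 485 alternative 3′ events (4.12%), and the difference was not tested. The events were spread over the chromosomes with 112 on chromosome 1, 59 on 2, 62 on 3, 50 on 4 and 66 on 5.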

How the data were processed

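RNA-seq of 12 libraries, 2 replicates in each of 6 groups, was processed by the submitters with Trimmomatic 0.32 and TopHat2 2.0.13 on TAIR10, per the submitters' processing notes. The event caller, how it filtered events and used strand, the groups compared in each table, and the pooling of replicates are each not given in the sources used here. Each event has a p-value, headed Adjusted P Value, and an FDR that the authors deposited, per the file headers. There are no values per sample, so depth and its precision are unknown.

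Alternative 5′ events of both chilling tables were joined by gene and position. The listed position was read as the last exon bases of the 2 sites, which the annotated sites bear out. Sites, frames and sequences came from the TAIR10.1 assembly and its annotation, in which all 324 genes were found. Shares were compared with Fisher's exact test (two-sided, Newcombe intervals) and medians with a permutation test of 100000 draws, adjusted by Benjamini-Hochberg over 6 tests, and single shares have 95% Wilson intervals. The number of tests was recovered from p-value and FDR, with ranks whole within 0.0001 for 88.4% of the values in smeb and 85.3% in Col-0. The procedures were tested on simulated data. Python 3.11.15, scipy 1.17.1, statsmodels 0.14.6, pandas 2.3.3 and matplotlib 3.10.9 were used.

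Named genes were, per class, up to 8 with a symbol and the lowest FDR (for events of both tables the lower of the pair, with ties resolved by the shorter spacing, then by locus), all members of the gene lists with an event, genes with 3 or more events, the 3 longest spacings, SmEb and SmEa. A rule for sites 4 nt apart had no event, so 5-nt events were taken after the values were seen, as were CIPK21 and GBF3. The members and lists were chosen with earlier results of these data known. Alternatives were an FDR under 0.01, 1 event per gene, readable events inside the gene, coding events and a looser match between tables.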

Additional observations from a re-analysis of the deposited data

How the results depend on the processing

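Of 49 values under alternatives, 47 kept the direction and side of the threshold of a test, stayed within 1.5 times a count or stayed within the spread of a value. The share of events with both sites annotated moved to 45.9% when only readable events inside the listed gene were kept, which leaves out sites that cannot be annotated on the listed strand. The share with a multiple of 3 moved to 36.3% among events with both sites annotated, an alternative chosen after seeing the data, and the cause was not tested. The longer median spacing of 5′ sites than of 3′ sites ranged between 13.5 and 15 nt over 3 alternatives, with adjusted p between 6e-05 and 0.00108 in the permutation test. No other comparison passed under an alternative, but differences moved by more than 1.5 times. For multiples of 3, smeb alone minus Col-0 alone ranged between -25.2 points (both sites annotated) and -8.38 (FDR under 0.01), and 5′ minus 3′ sites between -12.6 (both sites annotated) and -3.19 (coding span), with adjusted p of 0.0755 or more in Fisher's exact test. For both sites annotated, 5′ minus 3′ sites reached 5.19 points among readable events, and the median spacing of smeb alone minus Col-0 alone ranged between -6 and -3 nt. The causes were not tested. At an FDR under 0.01, 58 events were left in smeb alone, 105 in both and 86 in Col-0 alone. No paired analysis was possible because the tables hold no values per sample, and for the same reason no replicate could be left out. Shifting the position by 1 base was not run, since annotated sites settle the convention, and a share of sites 4 nt apart could not be tested, with no event under 5 nt. Depth is unknown and its limits could not be assessed.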
